A study of Mus musculus with 10 samples.

Results

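The genes described here are those whose mean level in mouse liver after 5 g/kg ethanol lay above or below the means of both other groups, the maltose control and 7 g/kg ethanol, so that no straight line from 0 over 5 to 7 g/kg passes through the 3 means. For each gene the 5 g/kg mean minus the average of the control and 7 g/kg means, here called the contrast, was tested in 1 limma fit of 3 group means over all 10 arrays. Values are log2 ratios of liver signal (Cy5) over a common reference RNA (Cy3). Of 26124 genes tested, 180 (0.689%) passed a Benjamini-Hochberg adjusted p of 0.05 on the contrast, two-sided. In 108 of them (0.413% of the genes tested) the 5 g/kg mean lay above both other means, and in 46 (0.176%) it lay below both. These 154 genes, 119 with a gene symbol and 35 without, are the subject. In the other 26 the 5 g/kg mean lay between the other means.

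By the labels, the animals were male C57BL/6N mice, with no genetic change named. The control group (3 arrays) was gavaged with maltose, isocaloric to 5 g/kg ethanol and thus not matched in calories to 7 g/kg. The ethanol groups received 5 g/kg (4 arrays) or 7 g/kg (3 arrays) by gavage. Total RNA was taken from fresh liver, and the labels name neither the ages nor the time between gavage and collection. Each array held 1 replicate, and no label says whether animals were pooled, and the p-values therefore rest on array-to-array spread, which may be partly technical. The reference was a commercial mixed mouse RNA. The design compares maltose with the pair of ethanol doses, and the question taken here is which genes depart from a reading that is linear in dose.

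Cells answer damaged or misfolded protein with separate transcriptional programmes. In the cytosol and nucleus the heat shock factors bind repeats of GAA and its reverse complement, TTC, in promoters. They raise chaperones such as the inducible Hsp70, the Hsp90 proteins, their co-chaperones and the small heat shock proteins. In the endoplasmic reticulum (ER), where the liver folds the plasma proteins it secretes, the unfolded protein response raises lumenal chaperones, and the promoters of many of these carry the ER stress response element. Ethanol is oxidised mainly in the liver by alcohol dehydrogenases and a P450 enzyme, and acute ethanol also meets the methionine cycle, the steroid and drug enzymes and the sex-biased genes of this organ.

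The promoters of the chaperone members are shown because genes of both programmes are among the members. Sequences are from RefSeq promoter windows on GRCm38.p6, on the strand of the gene, searched on both strands over the 250 bases before the start, with 20 bases printed on each side of the match. Windows were found for 91 of the 154 members, and none was found for Hsp90aa1, Hsp90ab1, Hspa8, Hyou1 and Manf. The first motif, in capitals, is GAANNTTC, the inverted pair of heat shock units, which 6.69% of all 32851 windows hold. The matches lie at chr5:135887782-135887849 (plus strand) and chr6:128438780-128438827 (minus strand).
Hspb1: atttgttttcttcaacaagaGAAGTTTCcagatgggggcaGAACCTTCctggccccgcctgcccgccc
Fkbp4: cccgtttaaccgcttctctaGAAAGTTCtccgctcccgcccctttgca
The Hspb1 window holds 2 such pairs, beginning 117 and 97 bases before the start, and the Fkbp4 window holds 1. Of the heat shock list members, Hspb1 and Hsph1 had a window. That of Hsph1 held no match, and Fkbp4 is a member outside that list. Of the 11 heat shock genes tested that had a window, 5 hold the motif, namely Dnaja1, Hspa1a, Hspb1, Hspd1 and Hspe1. Among these Hspb1 alone is a member.

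The second motif, in capitals, is the ER stress response element, CCAAT and CCACG with 9 bases of any kind between them, which 0.113% of all windows hold. Of the 15 ER chaperone and degradation genes tested that had a window, 8 hold it, among them 4 of the 5 that are members (Calr, Creld2, Dnajc3 and Hsp90b1). The stretches lie at chr15:88819500-88819558 (plus), chr10:86705513-86705676 (minus), chr8:84847055-84847113 (minus), chr13:12565662-12565720 (plus) and chr14:118937807-118937865 (plus), in the order printed.
Creld2: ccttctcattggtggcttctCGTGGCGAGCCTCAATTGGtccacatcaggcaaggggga
Hsp90b1: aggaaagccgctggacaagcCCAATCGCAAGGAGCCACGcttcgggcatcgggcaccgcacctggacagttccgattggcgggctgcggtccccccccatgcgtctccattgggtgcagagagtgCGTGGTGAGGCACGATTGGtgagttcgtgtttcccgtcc
Calr: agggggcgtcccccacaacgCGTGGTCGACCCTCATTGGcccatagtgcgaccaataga
Ero1b: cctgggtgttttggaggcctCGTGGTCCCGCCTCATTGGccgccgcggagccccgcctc
Dnajc3: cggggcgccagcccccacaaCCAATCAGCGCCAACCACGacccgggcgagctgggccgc
The Hsp90b1 window holds the element 2 times, once on each strand. A match describes the letters of the window and shows no binding. Over all members with a window, GAANNTTC stood in 8.79% (7.81% of those above both other means and 11.1% of those below), beside 6.69% of all windows. The ER stress response element stood in 6.59%, and its holders Acnat2 and Ero1b lie outside the ER list. Members were counted once per gene and the share in all windows per window, so the shares are not strictly alike.

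Arrays had median liver signals between 117 and 208 units, local backgrounds between 21 and 24 units and 65.8% to 84.5% of spots well above background, and the 2.72% to 5.94% of spots marked as outliers were left out. The arrays lay on 4 slides, and every 5 g/kg array shared its slide with an array of another group. Hepatocyte markers summed to 7.36 to 10.2 (ratios to the reference, 7 genes) in controls, 11.7 to 13.5 at 5 g/kg and 13.01 to 16.7 at 7 g/kg. The sum over 13 stellate cell and fibroblast markers was 14.18 to 15.04 at 5 g/kg, above 12.11 to 13.77 in controls and 13.63 to 14.02 at 7 g/kg. None of these markers passed the contrast, but 1 of them, Dcn, missed the threshold narrowly (contrast 0.57, adjusted p 0.05003). Sinusoidal endothelial markers (16 genes) summed to 12.76 to 13.94 in controls, 14.94 to 16.79 at 5 g/kg and 15.10 to 16.06 at 7 g/kg, so both ethanol groups lay above control. Neutrophil markers (11 genes) summed to 9.77 to 10.04 in controls, 9.61 to 13.34 at 5 g/kg and 12.17 to 13.25 at 7 g/kg. Of 14 marker lists, 13 held no member, and the exception was the hepatocyte list with Ahsg. In bulk tissue fewer cells of a type and less RNA per cell cannot be told apart, and the part of these markers in the results, most of which include a difference from control, was not tested.

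The members fell into 3 shapes according to which of the other groups the 5 g/kg mean was shown to differ from (plot of both differences). In 33 members (0.126% of all genes tested, the count of genes for which both pairwise tests passed in 1 direction) 5 g/kg differed from control and from 7 g/kg. Each pairwise test was adjusted on its own here, and 3 genes passed when the larger of both p-values was adjusted. The 33 are therefore candidates for a peak or a trough at 5 g/kg. Of them 24 lay above and 9 below, and 23 carry a symbol. The median size of their distance was 0.75 from control and 0.77 from 7 g/kg, and in 5 of them 7 g/kg was shown to differ from control. In 90 members 5 g/kg differed from control alone, and in 63 of these 7 g/kg differed from control as well. These 63 members had left the control level at both doses, by a median of 1.02 at 5 g/kg, and their 5 g/kg mean passed the 7 g/kg mean by a median of 0.25, a difference that passed in none of them. In the remaining 31 members 5 g/kg differed from 7 g/kg alone. Over all genes 5 g/kg differed from control in 3.79%, 5 from 7 g/kg in 1.57% and 7 g/kg from control in 9.01%.

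**Figure D1:**
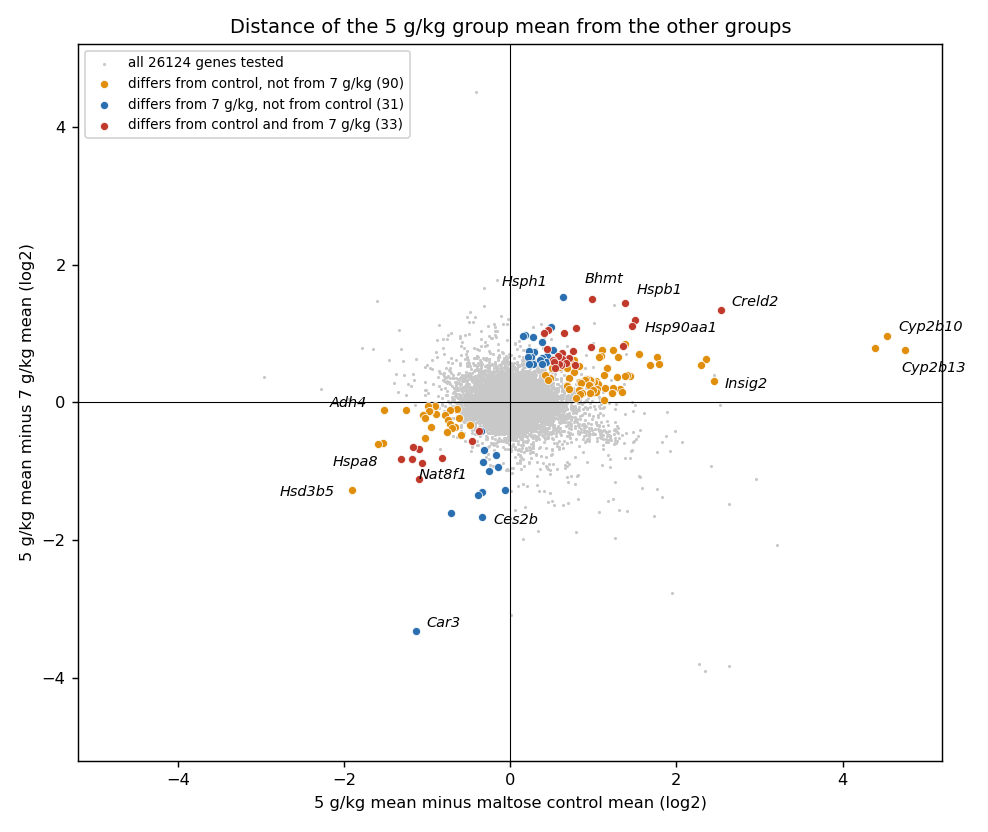
Each point is a gene, with the 5 g/kg mean minus the control mean on the x axis and minus the 7 g/kg mean on the y axis (both log2). Coloured points are the 154 members by the pairwise tests they passed. Members above both other means lie in the upper right quadrant and those below both in the lower left. The 90 members that differ from control alone spread along the x axis. The 33 that differ from both lie around the diagonal, some far from it, such as Creld2 (2.53 and 1.34) and Rtn4rl1 (0.46 and 1.05).

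Because a member is only selected for its distance from an average, the 5 g/kg mean was also tested against the point that a straight line in g/kg gives at 5, and 98 genes (0.375%) passed with a mean outside both others, 82 of them members. The strictest reading takes the larger of both pairwise p-values and adjusts it over all genes. Hspb1, Hsp90aa1 and 1 transcript without a symbol, AK009137, passed it (0.0115%). Bhmt and Nat8f1 came next, at adjusted p of 0.0766 and 0.0796. At the edge of the rule, Dop1b was the last gene inside with a contrast of 0.76 and an adjusted p of 0.0498, and Dcn the first outside with 0.57 and 0.05003. In all genes 56.4% had a 5 g/kg mean outside both others by the means alone, and in 505 genes (1.93%) the values at 5 g/kg did not overlap those of the other 6 arrays. Among the members 84 had no overlap, 60 above and 24 below, a count to which the choice of members contributes.

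Hspb1, a small heat shock protein that holds unfolding proteins in solution, had the clearest peak. Its log2 ratio was −0.73, −0.67 and −0.81 on the control arrays, 0.60, 0.45, 0.88 and 0.67 after 5 g/kg, and −0.96, −0.73 and −0.68 after 7 g/kg. All 4 arrays at 5 g/kg stood more than a log2 unit above every other array, while control and 7 g/kg overlapped. The 5 g/kg level was 2.61-fold that of control and 2.72-fold that of 7 g/kg. The contrast was 1.41 ± 0.098 (SE) with an adjusted p of 5.85e-06 in limma. The 7 g/kg mean minus the control mean was −0.06 with a 95% interval of −0.32 to 0.21.

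Hsp90aa1, the stress-inducible cytosolic Hsp90, had values of −0.56, −1.01 and −0.77 under maltose, 0.61, 0.82 and 0.63 on the 3 arrays at 5 g/kg with a usable spot, and −0.35, −0.54 and −0.35 after 7 g/kg. Its 5 g/kg values did not overlap the others, and the mean was 2.77-fold that of control (adjusted p 4.02e-05) and 2.15-fold that of 7 g/kg (adjusted p 0.000695). Hsp90ab1, the constitutive Hsp90, was at 0.03, −0.03 and 0.04 under maltose, 0.43, 0.52, 0.37 and 0.47 after 5 g/kg and −0.41, −0.34 and −0.22 after 7 g/kg. Here the 3 groups formed separate bands, with 7 g/kg lowest, and 5 g/kg differed from control by 0.44 ± 0.093 (adjusted p 0.0166) and from 7 g/kg by 0.77 ± 0.093 (adjusted p 0.000695).

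Hsph1, a nucleotide exchange factor for Hsp70 chaperones, and Fkbp4, a co-chaperone of Hsp90, had their 5 g/kg values above all others but differed from 7 g/kg alone. Hsph1 was at −0.14, −0.43 and −0.29 under maltose, −0.08, 0.47, 0.70 and 0.32 after 5 g/kg and −1.50, −1.27 and −0.75 after 7 g/kg. Its 5 g/kg mean was 2.88-fold that of 7 g/kg (adjusted p 0.000695), and against control the difference of 0.64 had an adjusted p of 0.0752. Fkbp4 was at −0.15, −0.10 and −0.04 under maltose, 0.21, 0.13, 0.19 and 0.20 after 5 g/kg and −0.71, −0.83 and −0.74 after 7 g/kg. The 7 g/kg mean of Fkbp4 lay 0.67 below control, with a 95% interval of −0.87 to −0.46.

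Hspa8, the constitutive Hsp70 chaperone, went the other way. It was at 0.57, 0.10 and 0.50 under maltose, −1.01 and −0.83 on the 2 arrays at 5 g/kg with a usable spot and −0.06, −0.24 and 0.02 after 7 g/kg. The contrast of −1.07 had an adjusted p of 0.00369, and with the outlier-marked spots kept, so that all 4 arrays counted, it was −1.12 with an adjusted p of 0.000112. Hspa8 has close copies in the genome, and the second probe of this gene had a usable spot on only 1 array.

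The heat shock list held 16 tested genes, of which 4 passed the contrast with the 5 g/kg mean above both others (Hspb1, Hsp90aa1, Hsph1 and Hsp90ab1) and 1 below (Hspa8), beside 0.413% and 0.176% of all genes. Its median contrast was 0.21, beside −0.0016 over all genes. In 6 of the 16 genes 5 g/kg passed above 7 g/kg, namely these 4 and the mitochondrial chaperonins Hspd1 (0.44, adjusted p 0.0302) and Hspe1 (0.55, adjusted p 0.0327), whose difference from control did not pass. Above control alone, Hspa4l (0.61, adjusted p 0.0325) and Hspb8 (0.81, adjusted p 0.0392) passed, with contrasts of 0.43 and 0.48 that did not. Contrasts that did not pass were −0.05 in Hspa1a, the inducible Hsp70, −0.24 in Dnajb1 and 0.09 in Hsf1. Hspb1 passed in every setting and omission tried, and the 5 heat shock members passed together with each array left out in turn, except that Hspa8 had too few values without replicate 1 or 3 of 5 g/kg. On the liver channel alone Hspb1 passed of the 5, on the scanner's processed signals all but Hspa8, and in the deposited series table Hspb1 and Hsp90ab1 of the 4 tested, all in the same direction.

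**Figure D2:**
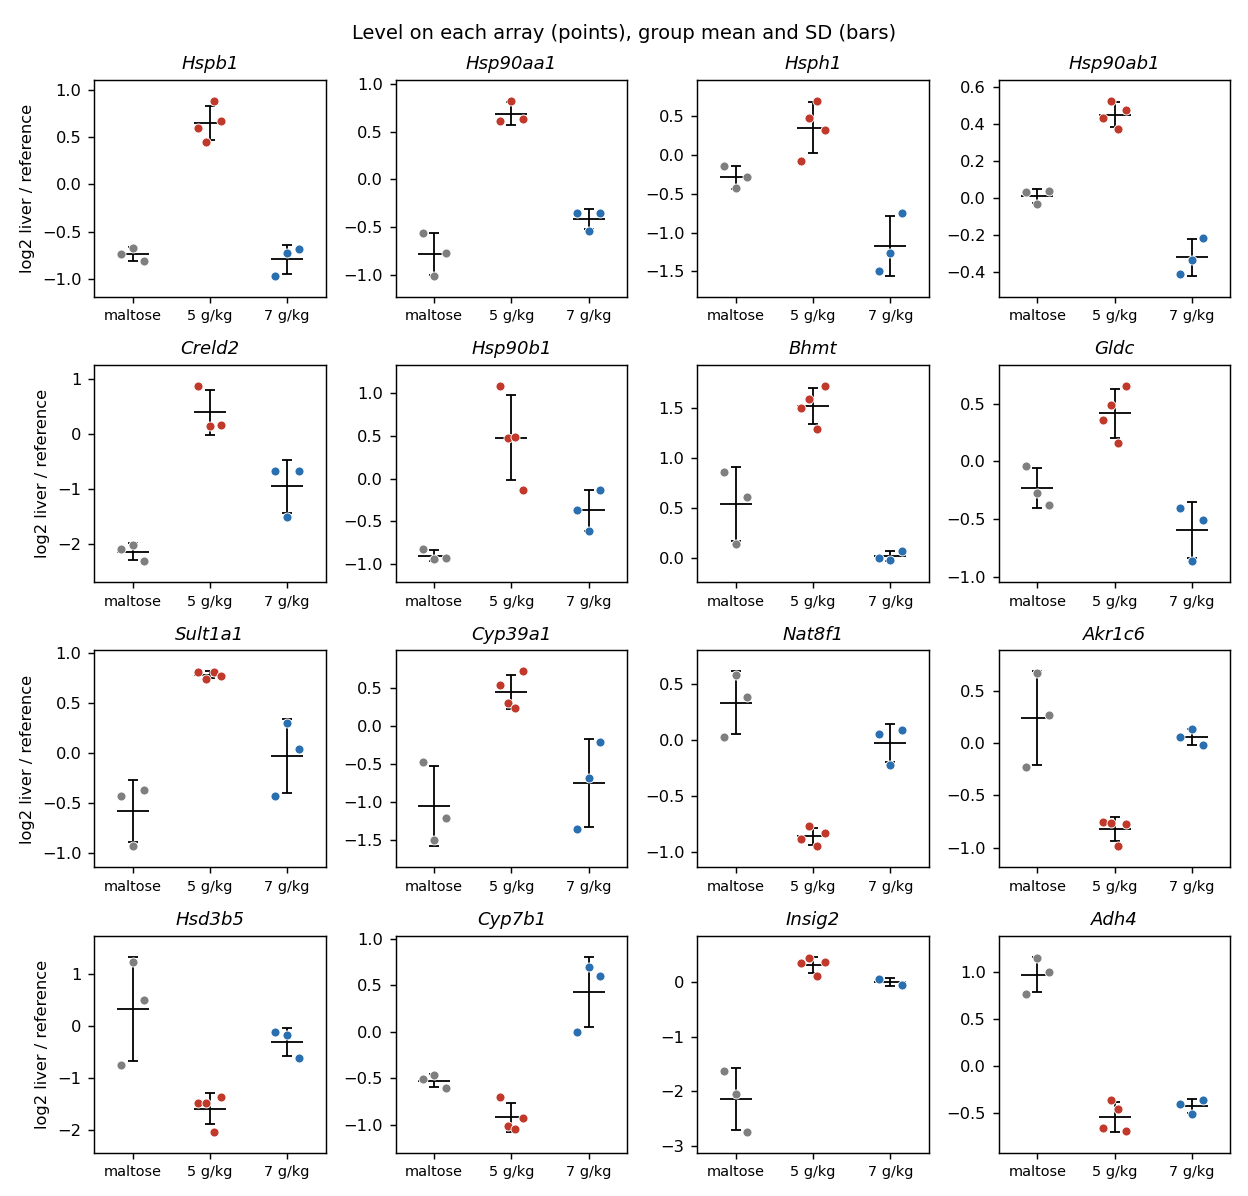
Log2 ratio of liver over reference (y axis) on each array (points) in the maltose control, 5 g/kg and 7 g/kg groups (x axis) for 16 members, with the group mean and SD as bars. Hspb1, Hsp90aa1, Hsp90ab1, Creld2, Bhmt and Gldc have all 5 g/kg points above every other point, Nat8f1 and Akr1c6 have them below, and Insig2 and Adh4 have left the control level at both doses.

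Creld2, an ER protein raised by misfolding in the lumen, was at −2.09, −2.02 and −2.32 under maltose, 0.87, 0.15 and 0.15 on 3 arrays after 5 g/kg and −0.68, −1.51 and −0.67 after 7 g/kg. The 3 groups did not overlap, with 7 g/kg between the others. The 5 g/kg mean was 5.78-fold that of control (adjusted p 5.22e-05) and 2.54-fold that of 7 g/kg (adjusted p 0.00949), and 7 g/kg differed from control as well (1.19, adjusted p 0.00480). With the fourth array kept despite its outlier mark, the distance from 7 g/kg was 0.91 and the contrast 1.51 (adjusted p 0.0354).

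Hsp90b1, the Hsp90 of the ER lumen, was at −0.82, −0.94 and −0.93 under maltose, 1.09, 0.47, 0.49 and −0.13 after 5 g/kg and −0.37, −0.61 and −0.13 after 7 g/kg. Replicate 4 of 5 g/kg sat at the level of the highest 7 g/kg array, so the groups touched. The mean was 2.60-fold that of control (adjusted p 0.00173), and the difference of 0.85 from 7 g/kg had an adjusted p of 0.0592. Ero1b, an oxidase that forms disulfide bonds in the ER, had no overlap, but its 5 g/kg mean was shown to differ from control alone. It was at −0.96, −0.70 and −1.26 under maltose, 0.52, −0.07, 0.08 and −0.16 after 5 g/kg and −0.37, −0.67 and −0.66 after 7 g/kg. The difference from control was 1.07 (adjusted p 0.0022), and that from 7 g/kg was 0.66 (adjusted p 0.0701). Its second probe gave 0.75 and 0.36.

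The list of ER chaperones and degradation genes had 18 tested genes. Of these, 7 passed the contrast with the 5 g/kg mean above both others and none below, beside 0.413% and 0.176% of all genes. The 7 were Creld2, Hsp90b1, Sdf2l1, Hyou1 (an ER chaperone of the Hsp70 family), Manf, Calr (calreticulin) and Dnajc3 (a lumenal co-chaperone). The median contrast of the list was 0.58. In 11 of the 18 genes 5 g/kg passed above control, in 8, Xbp1 among them, 7 g/kg did, and 5 g/kg passed above 7 g/kg in Creld2 alone. Over all genes 3.79%, 9.01% and 1.57% passed these tests in either direction. For the other 6 members the distance from 7 g/kg lay between 0.28 in Dnajc3 and 0.85 in Hsp90b1 and did not pass. Derl3, which acts in ER-associated degradation, had a contrast of 1.33 that did not pass (adjusted p 0.124), and Xbp1, a transcription factor of the unfolded protein response, had its 5 g/kg mean between the others.

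The arrays at 5 g/kg were uneven for these genes. Replicate 1 was the highest of the 5 g/kg arrays in 7 of 7 ER members, and replicate 4 the lowest in all 6 with a value there. Without replicate 4 all 7 passed, without replicate 1, 2 or 3 of that group Creld2 and Hsp90b1 passed, and without 1 array of another group 3 to 5 passed. With slide as a block Creld2, Hsp90b1 and Sdf2l1 passed, and with position on the slide as a block these 3 and Hyou1. Creld2 alone passed on the liver channel alone, on the scanner's processed signals and on the deposited series table, and all 7 kept their direction there. Creld1, a relative of Creld2, was also a member, with a contrast of 0.55 and a difference from 7 g/kg of 0.67 (adjusted p 0.00905).

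**Figure D3:**
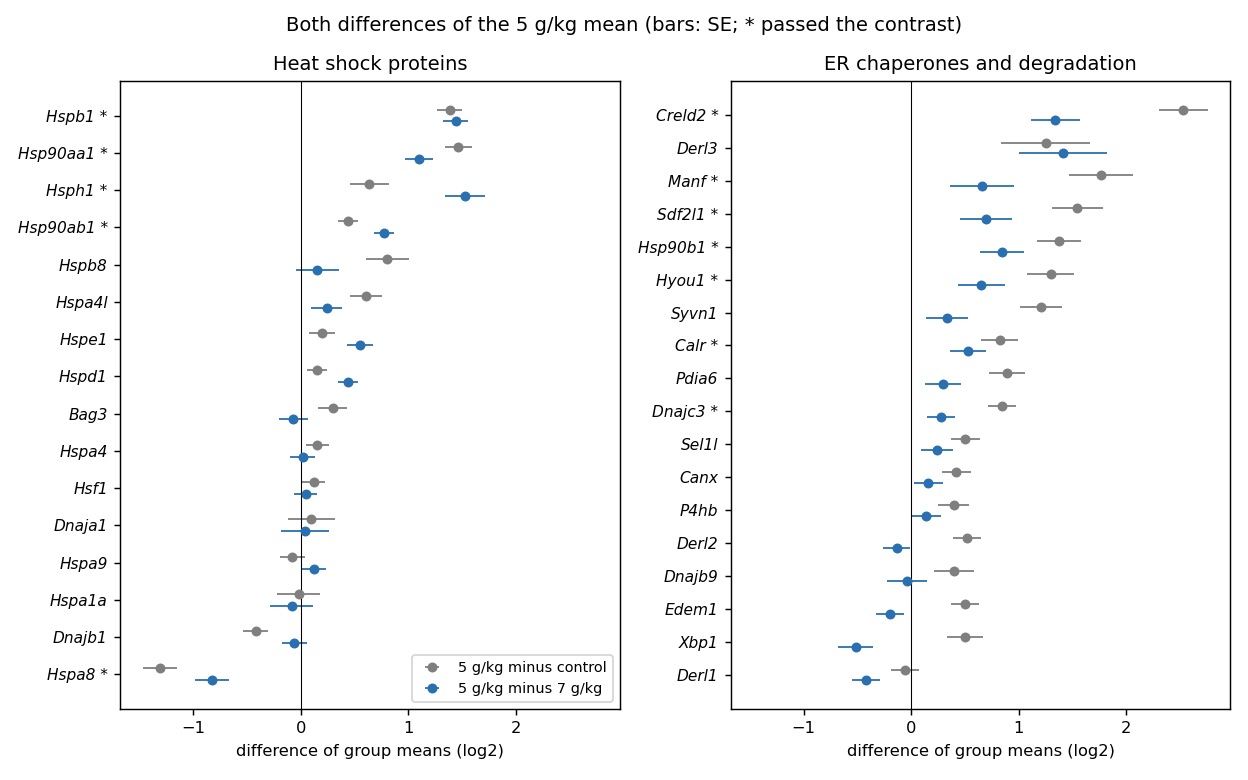
The 5 g/kg mean minus the control mean (grey) and minus the 7 g/kg mean (blue), in log2 with SE bars, for the 16 heat shock and 18 ER genes tested. An asterisk marks members. In Hspb1 and Hsp90aa1 both differences lie above 1, and in the ER genes the blue points lie closer to 0 than the grey ones, except in Derl3, Derl1 and Xbp1.

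Some enzymes of methionine and glycine metabolism were also members. Bhmt, which remethylates homocysteine with betaine, was at 0.86, 0.14 and 0.61 under maltose, 1.49, 1.59, 1.29 and 1.72 after 5 g/kg and 0.00, −0.01 and 0.08 after 7 g/kg. The 5 g/kg arrays stood above all others, 1.97-fold over control (adjusted p 0.00198) and 2.82-fold over 7 g/kg (adjusted p 0.000149). Gldc, the glycine-splitting enzyme of mitochondria, was at −0.03, −0.27 and −0.37 under maltose, 0.36, 0.49, 0.16 and 0.65 after 5 g/kg and −0.41, −0.86 and −0.50 after 7 g/kg. Its groups also did not overlap at 5 g/kg, with a contrast of 0.82 ± 0.12 (adjusted p 0.00407). Mat1a, which makes S-adenosylmethionine in hepatocytes, differed from 7 g/kg alone (0.76, adjusted p 0.0198). These were the 3 of 30 amino acid breakdown and urea cycle genes that passed, all above, beside 0.413% of all genes. The list's median contrast was 0.08. The contrast of Bhmt was 0.33 on the liver channel alone, where it did not pass, and −0.81 on the reference channel alone, so most of its ratio contrast stood in the reference signal. Bhmt and Ahsg were the 2 members with a larger contrast in the reference than in the liver channel. Odc1, which makes putrescine, had a contrast of 0.55 (adjusted p 0.0250), and Paox, which oxidises acetylated polyamines, one of −0.51 (adjusted p 0.0231), both chosen after their values were seen. Both differed from control and from 7 g/kg.

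Among the sterol and conjugation genes, Cyp39a1, an oxysterol hydroxylase of bile acid synthesis, was at −0.47, −1.49 and −1.20 under maltose, 0.54, 0.30, 0.24 and 0.72 after 5 g/kg and −1.35, −0.68 and −0.20 after 7 g/kg. The 5 g/kg arrays stood above the rest, and both differences passed (1.51 ± 0.25, adjusted p 0.00376, and 1.20 ± 0.25, adjusted p 0.0272). Its second probe gave 1.18 and 1.14. Sult1a1, which sulfates phenols, was at −0.42, −0.93 and −0.37 under maltose, between 0.74 and 0.81 on all 4 arrays after 5 g/kg and −0.43, 0.30 and 0.04 after 7 g/kg. It was 2.56-fold over control (adjusted p 0.000328) and 1.76-fold over 7 g/kg (adjusted p 0.0201). Of 24 conjugation enzymes 3 passed the contrast with the mean outside both groups, Sult1a1, Sult1d1 and Gstt3, all above, beside 0.413% of all genes. The median contrast of this list was −0.02. Sult1d1 and Gstt3 differed from control alone, with distances from 7 g/kg of 0.68 and 0.40 that did not pass. Gstt3 rested on 2 usable arrays at 5 g/kg and 2 at 7 g/kg. Acnat2 and the P450 gene Cyp3a13 had no overlap at 5 g/kg either, with contrasts of 1.00 and 0.93, and differed from control alone.

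Below both groups, Nat8f1, a member of an N-acetyltransferase family, was at 0.03, 0.58 and 0.39 under maltose, −0.88, −0.77, −0.95 and −0.82 after 5 g/kg and 0.05, −0.22 and 0.09 after 7 g/kg. All 5 g/kg arrays lay below the rest, the level was 0.439 of control and 0.564 of 7 g/kg, and the contrast passed in every setting and omission. Akr1c6, a hydroxysteroid dehydrogenase, was at −0.22, 0.68 and 0.27 under maltose, −0.76, −0.77, −0.99 and −0.77 after 5 g/kg and 0.06, 0.14 and −0.02 after 7 g/kg. It differed from control by −1.06 (adjusted p 0.00185) and from 7 g/kg by −0.88 (adjusted p 0.0121). The transcript AK009137 was at 0.39, 0.46 and 0.49 under maltose, −0.77, −0.24, −0.72 and −0.86 after 5 g/kg and 0.32, 0.52 and 0.53 after 7 g/kg, with all 5 g/kg arrays below the rest and a contrast of −1.10 ± 0.11 (adjusted p 0.000329).

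Hsd3b5, a steroid dehydrogenase of male mouse liver, had a wide spread under maltose, at −0.75, 1.23 and 0.49, against −1.47, −1.47, −2.03 and −1.36 after 5 g/kg and −0.12, −0.18 and −0.61 after 7 g/kg. Its values at 5 g/kg lay below all others, and the difference from control passed (−1.90, adjusted p 0.00422) while that from 7 g/kg did not (−1.28, adjusted p 0.0735). With Cyp7b1 and Nudt7 it made up the 3 of 11 male-predominant liver genes that passed, all below, beside 0.176% of all genes. The median contrast of that list was −0.20. Its median difference was −0.06 for 5 g/kg minus control, −0.49 for 5 minus 7 g/kg and 0.51 for 7 g/kg minus control. Of 16 female-predominant liver genes 2 passed above both groups and none below, beside 0.413% above in all genes, with a median contrast of 0.11. The medians of the same differences in the female-predominant list were 0.02, 0.39 and −0.35, in that order. Serpina6, which binds corticosteroids in plasma, and Inmt, a methyltransferase, differed from control by −1.60 and −1.53, with distances from 7 g/kg of −0.60 and −0.59 that did not pass.

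A different shape held where the difference from control passed at 7 g/kg and not at 5 g/kg. In 18 of the 31 members that differed from 7 g/kg alone, 7 g/kg also differed from control, on the other side. Cyp7b1, another oxysterol hydroxylase, was at −0.51, −0.47 and −0.60 under maltose, −0.70, −1.02, −1.04 and −0.93 after 5 g/kg and −0.01, 0.69 and 0.60 after 7 g/kg. Its distance from control at 5 g/kg, −0.39, did not pass, and its distance from 7 g/kg, −1.35, did (adjusted p 0.000329). Acss2, which turns acetate into acetyl-CoA, lay between −0.54 and −0.13 under maltose, between −0.73 and −0.49 after 5 g/kg and between 0.58 and 0.73 after 7 g/kg. Slc25a1, the mitochondrial citrate carrier, Pfkfb3, a regulator of glycolysis, and the carboxylesterase Ces2b followed it, with distances from 7 g/kg of −0.76, −0.93 and −1.66. The second probes of Acss2 and Ces2b gave smaller contrasts, both −0.41, and there the 5 g/kg mean was not below control (0.02 and 0.05 above it). Car3, a carbonic anhydrase, was the lowest member, with a contrast of −2.23, but its controls at −2.72, 0.00 and −0.82 overlapped the 5 g/kg arrays at −3.05, −2.40, −2.46 and −1.37, and only the distance from 7 g/kg, at 1.36, 0.99 and 0.63, passed (−3.32 ± 0.49, adjusted p 0.00289). Lifr, a cytokine receptor, was named from its brightest probe (−0.63), and its other 3 probes gave contrasts between −0.16 and 0.04.

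The highest contrasts belonged to genes that were high at both doses. The member with the smallest adjusted p, NM_009998, has no symbol here and was one of them. Its values were −4.33, −3.58 and −3.67 under maltose, 0.38, 0.49, 0.60 and 0.62 after 5 g/kg and −0.33, 0.23 and −0.70 after 7 g/kg, and the distance from 7 g/kg, 0.79, had an adjusted p of 0.0735. Cyp2b13, a P450 gene, was at −4.90, −3.82 and −4.17 under maltose, 0.31, 0.52 and 0.55 on 3 arrays after 5 g/kg and −0.40, 0.18 and −0.69 after 7 g/kg. It rose 27.0-fold at 5 g/kg over control, and the distance from 7 g/kg, 0.76 ± 0.25, had an adjusted p of 0.210. Cyp2b10 and Cyp2b9 had the same shape, with 5 g/kg minus control at 4.54 and 2.36 and 5 minus 7 g/kg at 0.96 and 0.64, on 2 usable arrays each at 5 g/kg. These 3 genes are close copies, so a probe can read its neighbours, and the second, dimmer Cyp2b13 probe gave a contrast of 0.05. Together with Cyp3a13 they were the 4 of 24 xenobiotic P450 genes and regulators that passed outside both groups, all above, beside 0.413% of all genes.

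Insig2, which holds the sterol sensor in the ER, was at −1.63, −2.04 and −2.74 under maltose, 0.34, 0.45, 0.11 and 0.36 after 5 g/kg and 0.06 and −0.05 on 2 arrays after 7 g/kg. It was 5.47-fold over control at 5 g/kg (adjusted p 1.99e-05), and its distance from 7 g/kg was 0.31 ± 0.22. The p53 target Trp53inp1, cytoskeletal Actg1 and the tubulin genes Tuba1b, Tuba1c, Tuba3a and Tubb2a were of this kind. A further tubulin, Tuba4a, lay 0.50 above control and 0.50 above 7 g/kg, and there 7 g/kg was not shown to differ from control (−0.01). Replicate 1 of 5 g/kg stood apart for Tuba4a at 0.388, with the others between −0.015 and 0.051. Its contrast failed to pass in 10 of 10 omissions of an array. These tubulins were named because they passed, with no list of tubulins behind them, and as close copies their probes can read each other. Sgk1 and Gadd45b were the 2 of 14 glucocorticoid targets that passed outside both groups, both above, beside 0.413% of all genes. The list's median contrast was 0.32. Sgk1 was above control at both doses, whereas for Gadd45b 7 g/kg was not shown to differ from control (0.15, adjusted p 0.709).

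Below control at both doses were Adh4 and Adh1, alcohol dehydrogenases. Adh4 was at 0.77, 1.14 and 1.00 under maltose, −0.66, −0.36, −0.46 and −0.69 after 5 g/kg and −0.41, −0.51 and −0.37 after 7 g/kg, with the ethanol groups overlapping. It fell to 0.350 of control at 5 g/kg (adjusted p 7.23e-06). Adh1 had a contrast of −0.42. With Acss2 these were the 3 of 11 genes of ethanol, acetaldehyde and acetate metabolism that passed, all below, beside 0.176% of all genes. The median contrast of this list was −0.16. Ppara, the nuclear receptor of fatty acid oxidation, was −1.26 from control (adjusted p 2.82e-05) and −0.11 from 7 g/kg. It was the only member among 26 genes of its target list.

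Of 40 pathway lists, 21 held a member and 19 held none, among them the ATF4 and CHOP stress genes, NRF2 targets, interferon response genes, inflammatory mediators, ribosomal proteins and proteasome subunits. Several genes that respond strongly to ethanol did not belong. Cdkn1a passed the contrast at 1.25 with its 5 g/kg mean just below that of 7 g/kg, and Dbp at −0.95 just above it. Igfbp1 climbed over both doses in its means and its contrast of 0.25 did not pass. The hepatokine Fgf21 (contrast 0.93, adjusted p 0.0896) and the lipid droplet gene Cidec (1.08, adjusted p 0.164) had means above both others at 5 g/kg and missed the threshold. Among genes with a value on all 10 arrays, those with a profile most like Hspb1 were Abhd8 (Pearson r 0.95), Ubxn4 (0.94), 2 transcripts without a symbol (both 0.93) and Fam32a (0.93), over 10 arrays that share the group structure.

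Slides 2 and 4 each held all 3 groups, so the contrast could be formed within them from 1 array a group. The median contrast in the members' direction was 0.60 on slide 2 (141 members with values) and 0.61 on slide 4 (135 members). These arrays had entered the choice of members, so the values describe the members and test nothing. With slide as a term in the fit 112 genes passed outside both groups, 96 of them members. Over the reference channel alone the median contrast of the members, in their direction, was −0.0016, with Bhmt and Ahsg far from it at −0.81 and −0.49, and over the liver channel alone it was 0.64.

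The number of genes depended on how the signals were processed (plot of genes by setting). From the scanner's processed signals 37 genes passed outside both groups, 28 from the deposited series table and 14 from the liver channel alone, and 34, 27 and 13 of these were among the 154. On the liver channel alone 8 of the 14 lay above and 6 below, a more even split than 108 and 46. Leaving out 1 array gave 61 to 155 genes. Without replicates 1, 2, 3 and 4 of 5 g/kg in turn 61, 80, 71 and 99 passed, without replicates 1 and 3 of 7 g/kg 77 and 93, and without replicate 3 of the control 80.

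**Figure D4:**
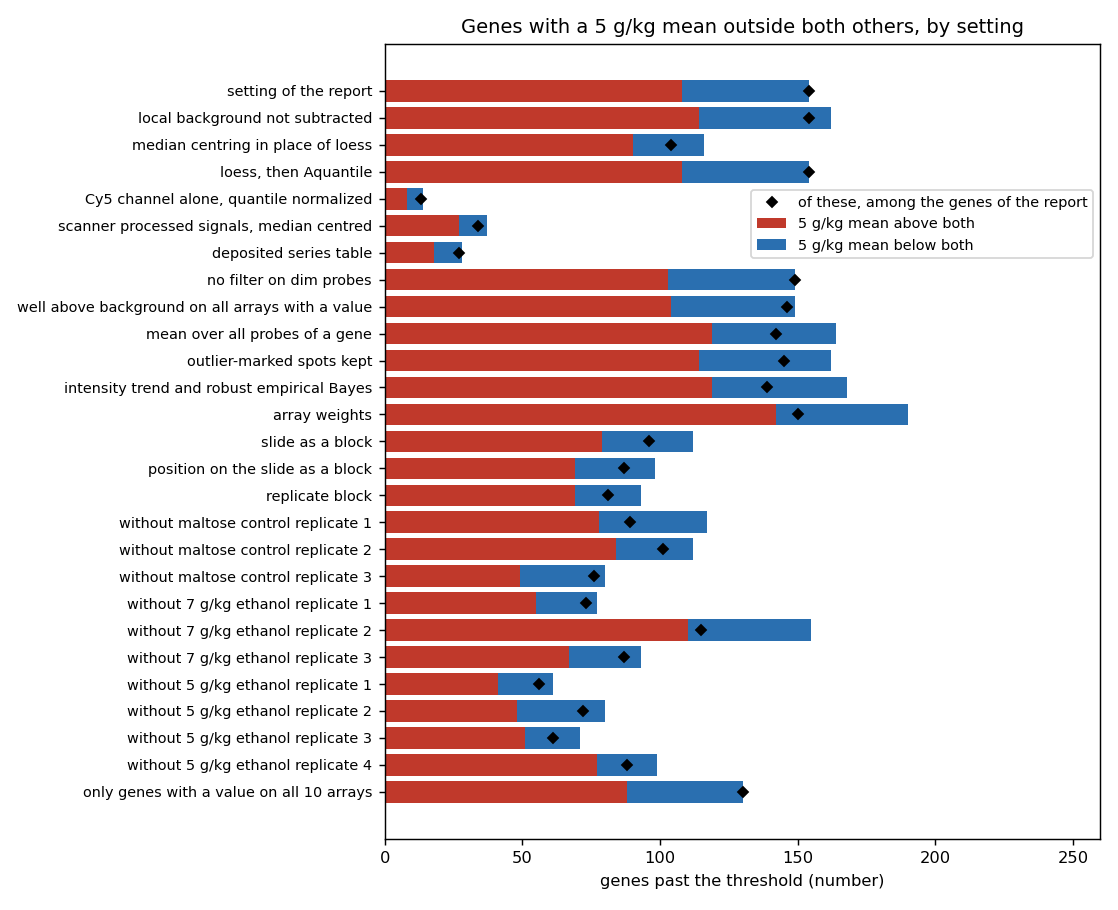
Number of genes (x axis) past an adjusted p of 0.05 whose 5 g/kg mean lay above (red) or below (blue) both other means, for each processing setting and for each array left out (y axis). Diamonds give how many of them are among the 154 described. The bars fall to 37, 28 and 14 genes for the scanner's processed signals, the deposited series table and the liver channel alone.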

How the data were processed

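Liver RNA on 10 two-colour Agilent mouse arrays was compared between the maltose control (3 arrays), 5 g/kg ethanol (4) and 7 g/kg ethanol (3). The members, gene lists and tests were chosen with earlier results of these data known. The authors' scanner files hold median spot and background intensity for both channels, made with Feature Extraction 11.5.1.1 per the file headers. The deposited processed intensities were background subtracted and dye normalized by that software, per the file headers, and its deposited log10 ratio is red over green. The deposited series table holds log2 ratios, a scale read from its slope of 3.25 to 3.28 on the log10 ratio; column medians ran from −0.073 to 0.076, and its normalization is not given in the sources used here.

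In R 4.3.3 with limma 3.58.1, median intensities were corrected with normexp (offset 50) and loess within arrays. Control and outlier-marked spots were left out. Spots of a probe were averaged. Probes well above background on at least 3 arrays, with at least 2 values per group, were kept, and the brightest probe stood for a gene. This left 26124 genes, 15111 with a symbol through a RefSeq accession (GRCm38.p6), with 1.43% of values missing. The median SE of the contrast was 0.10, on 7 residual plus 7.24 prior degrees of freedom. Only the fit of group means was run on simulated gene values with independent noise, and the steps before it were not tested that way. Named genes were the 15 highest and 15 lowest contrasts among members without overlap, up to 3 genes per list, and 10 fixed genes; others named as examples of a shape were chosen after their values were seen. A few genes of the rule are not described here. Replicate numbers did not pair the arrays. The number of arrays limits the precision.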

Additional observations from a re-analysis of the deposited data

Results flagged for a closer look

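In 102 members with a symbol and a value on all 4 arrays at 5 g/kg, 9 had 1 array far from the other 3 by Dixon's criterion at the 95% level, where chance alone would mark about 1 in 20. Replicate 4 of 5 g/kg was the distant array for Tnk2 (0.475, others 0.244 to 0.249), Olfr1386 (0.73, others 0.297 to 0.37) and Adh1 (−0.39, others −0.267 to −0.25). Replicate 3 was distant for Prune1 (−0.011, others 0.139 to 0.155), Gys2 (−0.041, others −0.441 to −0.377), Akr1c6 (−0.99, others −0.773 to −0.759) and Hsd3b5 (−2.03, others −1.47 to −1.36). Replicate 1 was distant for Tuba4a (0.388, others −0.015 to 0.051), and replicate 2 for N6amt1 (−0.386, others −0.611 to −0.576). In Akr1c6, Hsd3b5 and Adh1 the distant array lay farther from the other groups, so the remaining arrays still lay below them.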

How the results depend on the processing

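Of the 154 genes, all that could be tested kept the sign of their contrast under 16 alternatives and with each array left out, except Ahsg on the liver channel alone (−0.082) and Zfhx2 with outlier-marked spots kept (−0.007). The cause of the changes below was not tested. From the liver channel alone 14 genes passed outside both groups, 16 against the line, 1 on both pairwise tests and 8 of the 30 named, and from the scanner's processed signals 37, 18, 1 and 11, and 28, 20, 1 and 8 from the deposited series table. Position on the slide as a block gave 98 and 65 genes against the average and the line, an adjusted p under 0.01 gave 46 and 34, and one under 0.10 gave 263 and 193 with 5 on both pairwise tests. Both pairwise tests gave 5 genes with an intensity trend and robust moderation and 1 with slide as a block. The replicate number as a block, where replicate 4 of 5 g/kg has no partner and carries no weight, gave 93 genes against the average, 73 against the line and 3 on both pairwise tests; the numbers did not pair the arrays. Leaving out 1 array gave 61 to 155 genes against the average, 46 to 109 against the line, 1 to 6 on both pairwise tests and 15 to 24 of the 30 named. With only genes measured on all 10 arrays, an alternative chosen after seeing the data, 130, 77, 2 and 20 passed. Hspb1 was among the genes past both pairwise tests each time. Of the 119 members with a symbol 5 passed in every setting and omission that tested them, namely Creld2, Cyp2b10, Cyp2b13, Hspb1 and Nat8f1. Cyp2b10 rested on 2 arrays at 5 g/kg and could be tested in only 8 of the 10 omissions. The second, dimmer Cyp2b13 probe gave a contrast of 0.05. Normexp on mean intensities was not run, because mean signals are not among the columns used here.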
